A study of Homo sapiens with 4 samples.

Results

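The nuclear-encoded subunits and assembly factors of cytochrome oxidase and the subunits of ATP synthase were followed in SCC-9 cells, an established human line from a squamous cell carcinoma of the tongue, after addition of the microRNA miR-585-5p. Members were all genes with a symbol starting with ATP5, or made of COX and a number from 4 to 20, that have a probe set assigned to that gene alone, and each gene was represented by its brightest probe set over the 4 arrays. This gave 45 of the 18132 genes on the arrays, 26 of cytochrome oxidase and 19 of ATP synthase, with 112 probe sets in all. Cells were transfected with a miR-585-5p mimic or with the control small RNA miR-NC, both at 30 nM and 24 hours after seeding, and total RNA was taken after a further 36 hours. Each group had 2 arrays, and both groups share the line, the dose and the time, so there is no untransfected sample. Nothing in the labels tells whether a group's arrays are separate cultures, and p-values therefore measure only the spread between these arrays, which can be technical.

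Cytochrome oxidase, complex IV of the respiratory chain, takes electrons from cytochrome c and reduces oxygen to water while pumping protons across the inner mitochondrial membrane. Its catalytic core is made of mitochondrially encoded subunits that carry heme A and copper, and the nuclear-encoded COX subunits surround this core, while a separate set of COX proteins builds it and does not stay in the enzyme. ATP synthase lets the protons flow back through a rotating c ring, and the rotation drives ATP formation in the F1 head, which a peripheral stalk holds in place. Squamous carcinoma cells also make ATP by glycolysis, so the respiratory enzymes are part of their energy balance but not its only source. The added microRNA is shown because its seed, bases 2 to 8, in capitals, is the part that pairs with target transcripts. In RefSeq the mature strand comes from chr5:169263649-169263670 on the minus strand of GRCh38.p14, and whether the members' transcripts hold matching sites was not analysed here.
miR-585-5p: cUAGCACAcagauacgcccaga

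The arrays had closely similar medians, from 30.6 to 31.3 in intensity. Of the squamous epithelial markers measured, KRT5 (7049 to 8637), KRT14, CDH1, EPCAM and ITGB4 were bright on all 4 arrays. All 5 were called changed. KRT5, KRT14 and EPCAM had log2 changes (mimic minus miR-NC) of 0.24, 0.97 and 0.59, CDH1 and ITGB4 of -1.26 and -1.11. The leukocyte marker PTPRC and the fibroblast marker LUM lay below control probe sets without a human target on all 4 arrays. On all arrays 2 of 4 leukocyte, 3 of 5 fibroblast and 1 of 3 endothelial markers lay below these controls. CD68 (70.8 to 95.3), a macrophage marker, and the fibroblast marker PDGFRB (34.7 to 40.9) lay above them on all 4, with overlapping groups. The endothelial markers VWF (40.7 to 45.3) and PECAM1 (16.2 to 19.1) also lay above them on all 4. The groups overlapped for PECAM1, while VWF was lower on both mimic arrays (log2 change -0.11) and did not pass. The summed intensity of the 4 leukocyte markers was 93.5 to 108 on mimic and 113 to 118 on control arrays, that of 5 fibroblast markers 71.6 to 75.8 and 73.0 to 75.5, and that of 3 endothelial markers 67.5 to 70.7 and 73.8 to 77.8. The ratio of 3' to 5' signal of GAPDH was 1.11 with the mimic (both arrays) and 1.22 and 1.16 with miR-NC, that of ACTB was 14.3 (both arrays) against 14.4 and 13.8, and their part in the results was not tested. Over all 14122 genes tested, 55.0% passed the limma adjusted p threshold of 0.05, with 28.1% rising and 26.9% falling under the mimic. The members' counts are read against these shares.

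Most members of both enzymes moved little. Of the 45 members, 42 were bright enough to be tested, and the 3 that were not, ATP5MGL, COX7A1 and COX7B2, did not exceed the controls without a human target on any array. Of the 42, 12 rose and 6 fell, which is 42.9% called against 55.0% of all genes tested. The median log2 change of the members was 0.031, against -0.058 over all genes tested, and the median size of change, without sign, was 0.13 against 0.29. Only 3 of 42 members had a log2 change of 0.5 or more in size, where 27.9% of all genes did, and none reached 2-fold. These were ATP5IF1 and COX14, which fell, and COX11, which rose. The 2 groups did not overlap for 35 of the 42 members, where 79.4% of all genes were separated in this way. Member probe sets were bright, with a median intensity of 3013 against 123 over all genes tested, and their median standard error of a log2 change was 0.045 against 0.095. The shares and sizes of change above were not compared at equal brightness. By enzyme, 11 of 18 ATP synthase genes (61.1%) and 7 of 24 cytochrome oxidase genes (29.2%) were called, and the difference between the enzymes was not tested. The 18 calls became 8 without mimic replicate 2. The split of the calls rests on the scaling, with 8 higher and 11 lower after a second quantile normalization and 1 higher and 26 lower when arrays were scaled to the poly(A) spikes, where 66.5% of all genes were called.

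**Figure D1:**
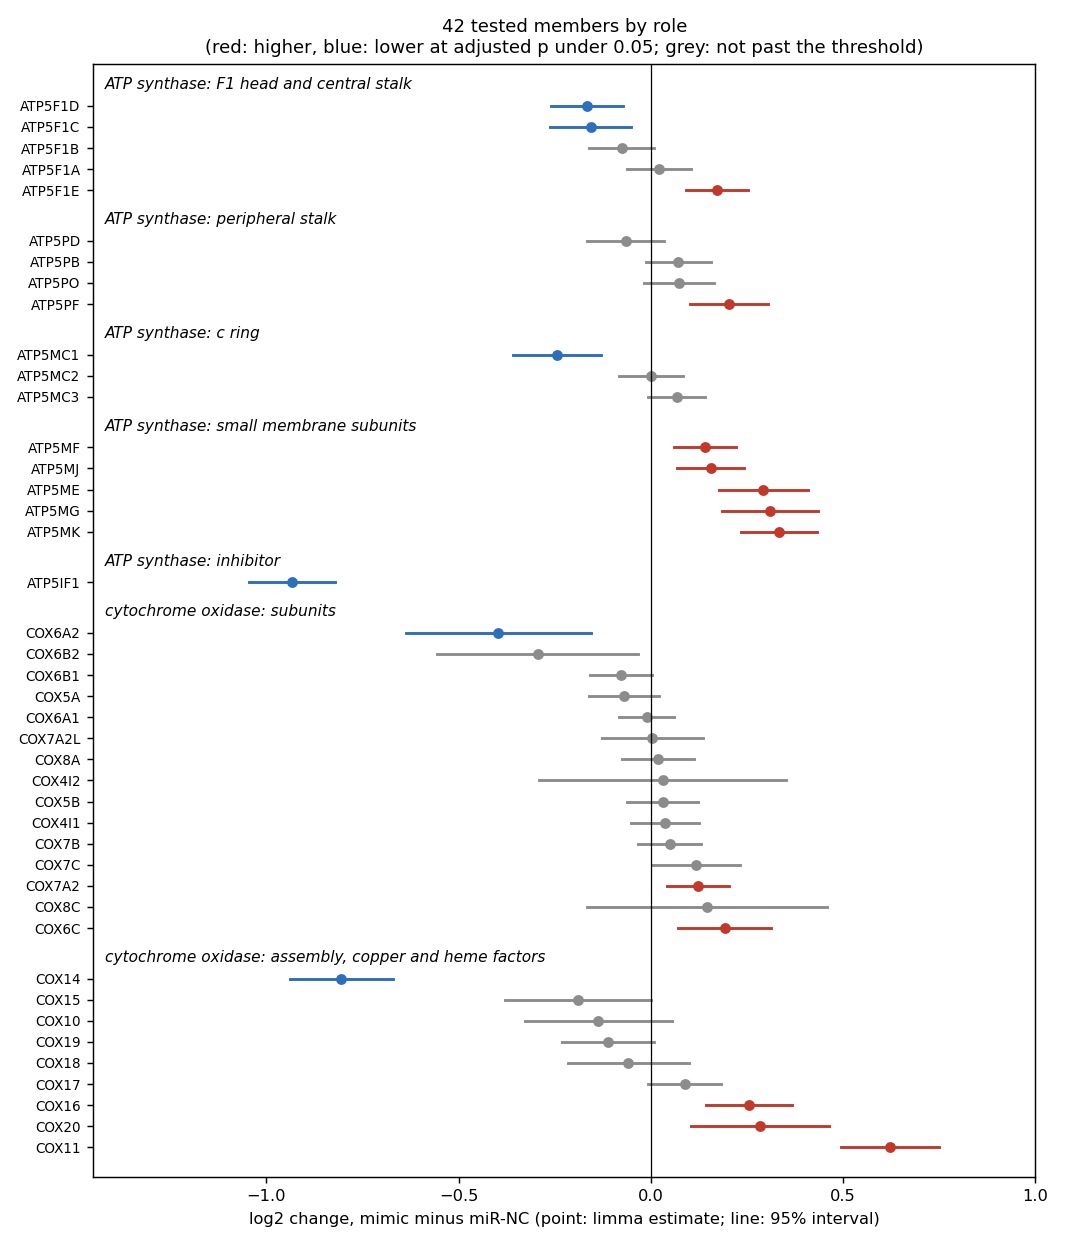
Log2 change (mimic minus miR-NC) of the 42 tested members, grouped by enzyme and role; points are limma estimates from 2 arrays per group, lines are 95% intervals, and colours mark the call on the deposited scale. ATP5IF1 and COX14 stand at -0.93 and -0.80 and COX11 at 0.62, while all other members lie between -0.40 and 0.33, and on the poly(A) scale every red gene except COX11 turns negative.

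The inhibitor of ATP synthase showed the largest change among the members. ATP5IF1 encodes the small protein that binds the F1 head and blocks its rotation when the enzyme would otherwise run backwards and consume ATP. Its probe set read 2016 and 1966 with the mimic and 3637 and 3977 with miR-NC. Both mimic arrays lay far below both control arrays. The log2 change was -0.93 ± 0.050 (SE, n = 2 per group, 95% interval -1.05 to -0.82, limma adjusted p = 1.24e-07), a 1.91-fold fall. Among all genes tested, 90.5% changed by less than this in size. All 3 other probe sets of the gene above background fell too, by 1.05 to 1.18 on the log2 scale. All 4 are of types that can cross-hybridize. The call kept its direction and side of the threshold under every setting that gave a value.

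**Figure D2:**
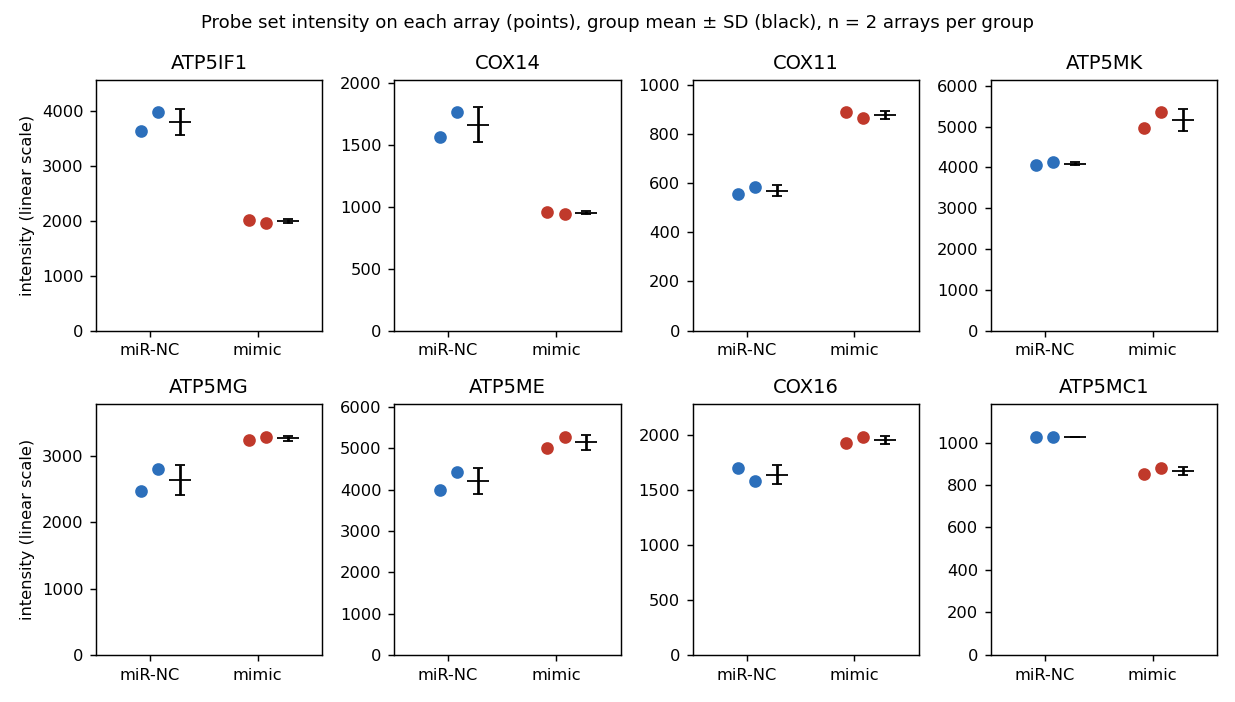
Intensity on a linear axis from 0 for 8 members, with each array as a point and the group mean ± SD in black (n = 2 arrays per group). The mimic arrays sit below the control arrays for ATP5IF1, COX14 and ATP5MC1 and above them for COX11, ATP5MK, ATP5MG, ATP5ME and COX16, and for the last 4 the sign of the log2 change turns with the poly(A) spikes.

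The small membrane subunits of ATP synthase rose together by small amounts, though with the poly(A) spikes all 5 turned to values between -0.20 and -0.0062. These proteins sit beside the c ring, and subunits e and g, from ATP5ME and ATP5MG, are known for holding ATP synthase dimers together at the bends of the cristae. Of 6 genes, 5 were tested and 5 rose, with a median log2 change of 0.29. ATP5MK, which encodes the small subunit known as DAPIT, read 4963 and 5348 with the mimic and 4060 and 4121 with miR-NC. Its groups did not overlap, and it rose by 0.33 ± 0.044 (SE, limma adjusted p = 8.30e-05), with its 2 other probe sets higher by 0.42 and 0.88. ATP5ME read 5007 and 5275 against 3982 and 4422, a rise of 0.29 ± 0.052 (limma adjusted p = 7.05e-04). ATP5MG read 3244 and 3294 against 2480 and 2803. It rose by 0.31 ± 0.056 (limma adjusted p = 7.65e-04), while its 2 other, dimmer probe sets stood at -0.074 and -0.057 and did not pass, and with the mean of its probe sets it was at 0.059. ATP5MJ, a small proteolipid subunit, and ATP5MF, subunit f, rose by 0.16 ± 0.039 and 0.14 ± 0.036. Neither passed without mimic replicate 2 (0.14 and 0.12), after a second quantile normalization (0.09 and 0.08) or without the mean-variance trend. Without mimic replicate 1 ATP5MJ was at 0.17 and did not pass. It was at 0.029 with the mean of its probe sets. Without probe sets of the a, s and x types (names ending in _a_at, _s_at or _x_at) it was at 0.0067.

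On the deposited scale the small membrane subunits moved together and ATP5IF1 the other way, while with the poly(A) spikes all were negative. Picked by these values, their promoters are shown for all called genes of both kinds that were matched in the RefSeq table (ATP5MF was not matched). Each runs from 250 bases before to 50 bases after the annotated start, from RefSeq on GRCh38.p14, at chr10:103396426-103396725 (minus strand), chr4:674227-674526 (minus strand), chr11:118401356-118401655 (plus strand), chr14:103921480-103921779 (minus strand) and chr1:28235874-28236173 (plus strand). Capitals mark CCGGAAG or its reverse complement CTTCCGG, the core bound by ETS factors such as GABP, a known regulator of respiratory genes.
ATP5MK: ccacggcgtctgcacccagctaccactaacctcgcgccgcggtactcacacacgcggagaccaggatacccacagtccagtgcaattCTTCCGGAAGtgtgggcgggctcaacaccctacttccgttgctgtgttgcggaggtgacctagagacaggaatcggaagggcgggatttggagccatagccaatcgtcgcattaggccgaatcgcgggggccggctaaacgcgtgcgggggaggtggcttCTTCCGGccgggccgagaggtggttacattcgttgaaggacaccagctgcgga
ATP5ME: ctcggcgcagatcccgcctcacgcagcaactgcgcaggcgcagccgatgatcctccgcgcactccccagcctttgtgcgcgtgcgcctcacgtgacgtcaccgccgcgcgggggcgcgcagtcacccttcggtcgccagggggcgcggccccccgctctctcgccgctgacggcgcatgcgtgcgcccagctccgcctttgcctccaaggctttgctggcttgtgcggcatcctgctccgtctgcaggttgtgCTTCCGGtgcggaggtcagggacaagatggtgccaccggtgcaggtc
ATP5MG: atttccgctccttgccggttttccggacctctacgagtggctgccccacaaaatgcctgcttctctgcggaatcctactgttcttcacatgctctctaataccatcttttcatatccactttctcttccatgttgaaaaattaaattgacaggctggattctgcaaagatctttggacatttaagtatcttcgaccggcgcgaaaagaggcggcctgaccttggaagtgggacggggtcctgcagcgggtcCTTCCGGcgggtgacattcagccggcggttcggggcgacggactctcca
ATP5MJ: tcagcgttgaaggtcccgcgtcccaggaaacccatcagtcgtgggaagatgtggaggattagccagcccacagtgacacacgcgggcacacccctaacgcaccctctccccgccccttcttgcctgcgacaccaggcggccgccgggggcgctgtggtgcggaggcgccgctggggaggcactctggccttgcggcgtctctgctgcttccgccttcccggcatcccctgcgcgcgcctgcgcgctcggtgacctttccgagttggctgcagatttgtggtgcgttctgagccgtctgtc
ATP5IF1: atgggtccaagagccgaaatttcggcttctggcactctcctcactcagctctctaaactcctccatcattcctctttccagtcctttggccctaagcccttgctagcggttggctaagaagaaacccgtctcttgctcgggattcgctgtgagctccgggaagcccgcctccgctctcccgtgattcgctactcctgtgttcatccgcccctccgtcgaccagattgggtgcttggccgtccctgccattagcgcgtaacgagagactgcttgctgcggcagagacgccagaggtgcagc
The core occurs 3 times in the ATP5MK window, with 2 of the matches overlapping each other on opposite strands, and once each in those of ATP5ME and ATP5MG. It is not among the letters of the ATP5MJ and ATP5IF1 windows. Promoters were found for 36 of the 45 members, some with more than 1 start, 46 windows in all. On both strands, 17 of these 46 windows (37.0%) held the core, where 10.3% of all 35116 windows of the same length did. The NRF1 core GCATGCGC, shortened from a longer motif after the counts of that motif were seen, was in 10 of 46 (21.7%, against 3.05% of all), and the YY1 core AAGATGGC in 5 of 46 (10.9%, against 2.89%). None of these motifs contains another, and windows of the same gene overlap. Of the 15 genes with a CCGGAAG core, 5 rose, 0 fell and 10 did not pass. Of 8 genes with the NRF1 core 2 rose, 1 fell and 5 did not pass, and of 4 with the YY1 core 1 rose and 3 did not pass, while of all 36 genes with a promoter 9 rose and 5 fell. A match is a run of letters and not a measured binding site, and a link between the motifs and the changes was not tested.

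Within the F1 head the subunits did not move in 1 direction. The catalytic ring is built of the alpha and beta subunits. Neither passed on its brightest probe set: ATP5F1A was at 0.021 ± 0.038 and ATP5F1B at -0.076 ± 0.039. Another ATP5F1A probe set, at 2388 and 2516 with the mimic and 2014 and 2312 with miR-NC, was called higher (0.18). Its dimmer ones, at 0.10 and 0.13, did not pass. Of the central stalk, which turns inside that ring, ATP5F1C (gamma) and ATP5F1D (delta) were lower and ATP5F1E (epsilon) was higher. ATP5F1D read 2513 and 2444 with the mimic and 2795 and 2763 with miR-NC, a fall of 0.17 ± 0.042 on the log2 scale (limma adjusted p = 0.00676). Its 2 other probe sets fell by 0.18 each. ATP5F1C read 1257 and 1250 against 1403 and 1391, with a log2 change of -0.16 ± 0.047 (limma adjusted p = 0.0166), but another of its probe sets rose by 0.28, so its direction depends on the probe set, and the mean of its probe sets was at 0.085. ATP5F1E read 7016 and 7234 against 6255 and 6395, a change of 0.17 ± 0.037 (limma adjusted p = 0.00228), and -0.17 with the poly(A) spikes. None of the central stalk genes passed without mimic replicate 2 or without the mean-variance trend. ATP5F1C and ATP5F1D did not pass with the hybridization spikes (-0.10 and -0.11), a scale whose p-values cannot be compared with the others.

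The peripheral stalk was nearly level. Of its 4 genes, only ATP5PF, coupling factor 6, passed, with 2358 and 2402 with the mimic against 2119 and 2018, a rise of 0.20 ± 0.046 (limma adjusted p = 0.00316), though it was at -0.14 with the poly(A) spikes and did not pass without mimic replicate 2 (0.19) or without the mean-variance trend. ATP5PB, ATP5PO and ATP5PD lay between -0.065 and 0.072 on their brightest probe sets. Of the other ATP5PO probe sets, 1 was called higher (0.11) and 1, at 0.017, did not pass.

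The c ring is encoded by 3 genes whose mature proteins are the same, so the ring can be supplied by any of them. ATP5MC1 read 854 and 880 with the mimic and 1027 and 1025 with miR-NC. It fell by 0.24 ± 0.052 (limma adjusted p = 0.00219), and this call held under every setting that gave a value, though the gene has 1 probe set, of a type that can cross-hybridize. ATP5MC2 was at 0.00 with a 95% interval of -0.08 to 0.08, and its groups overlapped. ATP5MC3 was at 0.067 ± 0.033 and did not pass, its mimic arrays at 8984 and 8967 and its control arrays at 8508 and 8625.

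The largest changes of cytochrome oxidase were in assembly factors, not in subunits. Of 9 tested assembly, copper and heme factors, 3 rose, 1 fell and 5 did not pass. COX14, a small membrane protein that holds the newly made core subunit I, read 962 and 944 with the mimic and 1569 and 1765 with miR-NC. All mimic values lay below all control values. Its log2 change was -0.80 ± 0.061 (SE, 95% interval -0.94 to -0.67, limma adjusted p = 1.28e-06), a 1.75-fold fall that stayed under every setting that gave a value. It rests on 1 probe set.

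COX11, the copper chaperone that delivers copper to subunit I, moved the other way. It read 887 and 865 with the mimic and 554 and 584 with miR-NC, with no overlap. The rise was 0.62 ± 0.057 on the log2 scale (95% interval 0.50 to 0.75, limma adjusted p = 5.36e-06), or 1.54-fold. All 5 other probe sets rose too, by 0.36 to 1.07, and the gene still rose with the poly(A) spikes, by 0.28. It was the only member called higher on that scale.

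Of the members that act on core subunit II, COX16 and COX20 rose and COX18 did not pass. COX16, which acts at the copper site of subunit II, read 1928 and 1984 with the mimic and 1699 and 1581 with miR-NC, a rise of 0.26 ± 0.051 (limma adjusted p = 0.00143). COX20, a chaperone of subunit II, read 239 and 259 against 196 and 213, a rise of 0.28 ± 0.081 (limma adjusted p = 0.0125), which was lost without mimic replicate 2 (0.22), without control replicate 1 (0.22) and with the mean of its probe sets (0.16). With the poly(A) spikes these genes were at -0.084 and -0.055. COX18, which moves the tail of subunit II across the membrane, was at -0.059 ± 0.071 and its groups overlapped.

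Among the members that supply copper and heme A, COX17, COX19, COX10 and COX15 did not pass on their brightest probe sets. COX17, which hands copper to the later chaperones, was at 0.088 ± 0.043, with 3217 and 3136 with the mimic and 3048 and 2930 with miR-NC. COX19 was at -0.11 ± 0.054, while 2 of its dimmer probe sets passed in the opposite direction, at 0.49 and 0.60. Of the heme A enzymes, COX10 was at -0.14 ± 0.086 and COX15 at -0.19 ± 0.086. A dimmer COX15 probe set, at 37 and 38 with the mimic and 71 and 73 with miR-NC, fell by 0.94. Outside the symbol rule and picked after their values were seen, the copper chaperone SCO2 and FDX2, a ferredoxin that serves heme A synthesis, fell by 0.28 ± 0.060 and 0.83 ± 0.078 (limma adjusted p = 0.00241 and 6.31e-06), while the copper chaperone SCO1 was at 0.061 ± 0.067 and did not pass.

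**Figure D3:**
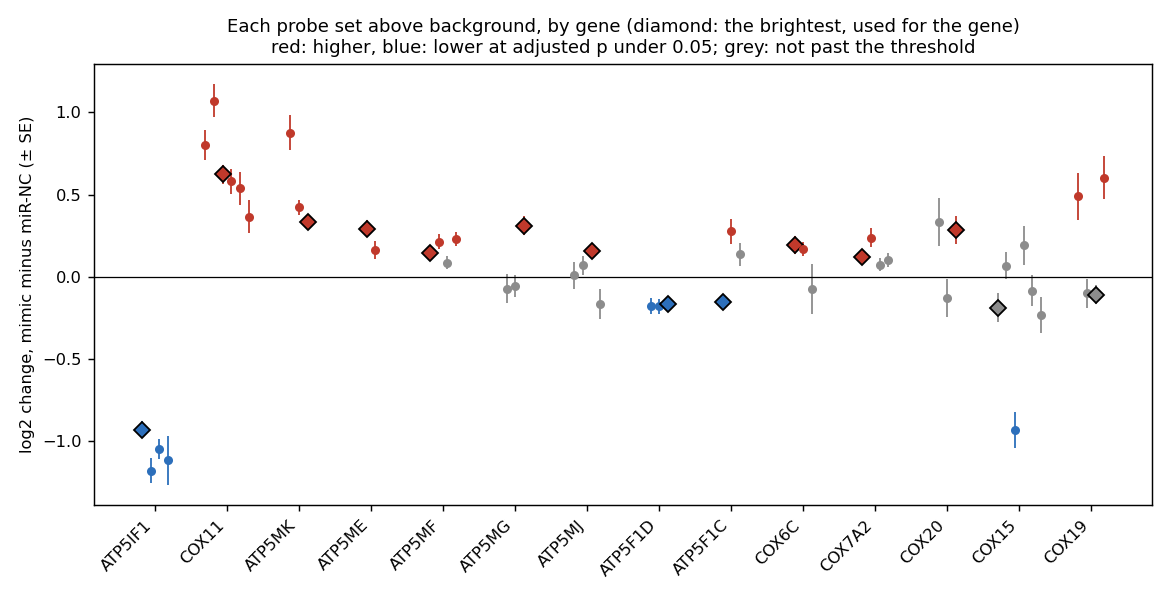
Log2 change (mimic minus miR-NC, ± SE) of each probe set above background for 14 members with several probe sets; diamonds mark the brightest probe set, which represents the gene, and colours mark the call over all probe sets. All probe sets of ATP5IF1 and COX11 point the same way, and those of ATP5F1C hold opposite calls. For COX19, 2 dimmer probe sets were called higher, while the brightest was negative and did not pass. The rises of ATP5MG and ATP5MJ rest on the brightest probe set. With the poly(A) spikes every point lies 0.34 lower, so the small rises turn negative.

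The subunits of cytochrome oxidase were close to level. Of 17 genes 15 were tested, 2 rose, 1 fell and 12 did not pass, with a median log2 change of 0.031. COX6C, a small subunit of the membrane part, read 6960 and 7127 with the mimic and 5773 and 6581 with miR-NC, a rise of 0.19 ± 0.055 (limma adjusted p = 0.0120). COX7A2 read 5341 and 5318 against 4900 and 4897, a rise of 0.12 ± 0.036 (limma adjusted p = 0.0157). Both calls were lost without mimic replicate 1, without mimic replicate 2, after a second quantile normalization, with averaged probe sets and without the mean-variance trend. With the poly(A) spikes the values were -0.15 and -0.22. Without probe sets of the a, s and x types COX6C was at -0.077, on a dim probe set at 22.9 to 29.1. The other bright subunits did not pass on their brightest probe sets. COX6A1, with the brightest probe set of all members, read 13027 and 12821 with the mimic and 13210 and 12840 with miR-NC, a change of -0.011 with a 95% interval of -0.08 to 0.06. COX4I1, the regulatory subunit that binds ATP, read 7041 and 7208 against 7150 and 6746, at 0.037 ± 0.040. Another of its bright probe sets, at 5190 and 5156 against 4822 and 4803, was called higher (0.10). COX5A and COX5B were at -0.069 and 0.031, COX6B1 at -0.078, COX7B at 0.049 and COX8A at 0.019. COX7C was at 0.12, with a 95% interval of 0.0021 to 0.23. COX6B1 passed after a second quantile normalization (-0.13) and with the poly(A) spikes (-0.42). COX7B passed with the mean of its probe sets (0.11) and without probe sets of the a, s and x types (0.16), its other probe set being called higher. Over all 24 members that did not pass, the 95% interval stayed within 0.25 on either side of 0 for 19 and within 0.5 for 23.

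Tissue-restricted isoforms of the subunits were dim. COX6A2, the isoform of heart and skeletal muscle, read 43.2 and 43.7 with the mimic and 58.1 and 56.4 with miR-NC, a fall of 0.40 ± 0.11 (limma adjusted p = 0.00958) that did not pass without mimic replicate 1 (-0.39) or mimic replicate 2 (-0.40). Its partner COX6A1 did not pass, and the difference between both changes was not tested. COX6B2, best known from testis, read 32.7 and 35.7 with the mimic and 41.9 on both miR-NC arrays, a change of -0.29 ± 0.12 that missed the threshold (limma adjusted p = 0.0558) but passed with the replicate block, without the mean-variance trend, with the offset of 16, after a second quantile normalization and with the poly(A) spikes, against -0.078 for COX6B1. COX4I2, the isoform linked to low oxygen in lung, exceeded the controls without a human target on 1 of 4 arrays, and COX8C was at 17.7 to 21.5, just above them. COX7A1, the muscle partner of COX7A2, and COX7B2 did not exceed them on any array and were not tested. COX7A2L, which helps join complexes III and IV, was at 0.004 with a 95% interval of -0.13 to 0.13, its groups overlapping at 1218 and 1176 against 1134 and 1256.

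Of the 18 members called, 12 had another probe set above background. In 8 of these at least 1 other probe set passed in the same direction, and in 1, ATP5F1C, another passed in the opposite direction. Over all member probe sets bright enough to be fitted, 31 of 99 were higher and 12 lower, where 51.4% of all probe sets were called.

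The scale itself limits what small changes can show. The poly(A) spikes, bacterial transcripts added to the RNA before labelling, were 0.34 higher (log2) on the mimic arrays, and the hybridization spikes, added after labelling, 0.052 lower. Setting the arrays to the poly(A) spikes moves every gene by the same amount and takes the median of all genes from -0.058 to -0.40 and that of the members from 0.031 to -0.31, so the members stay 0.089 above the median gene on both scales. The spikes also differed between the 2 control arrays, at a mean log2 of 5.76 and 5.95. On that scale ATP5IF1, COX14 and ATP5MC1 still fell and COX11 still rose.

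**Figure D4:**
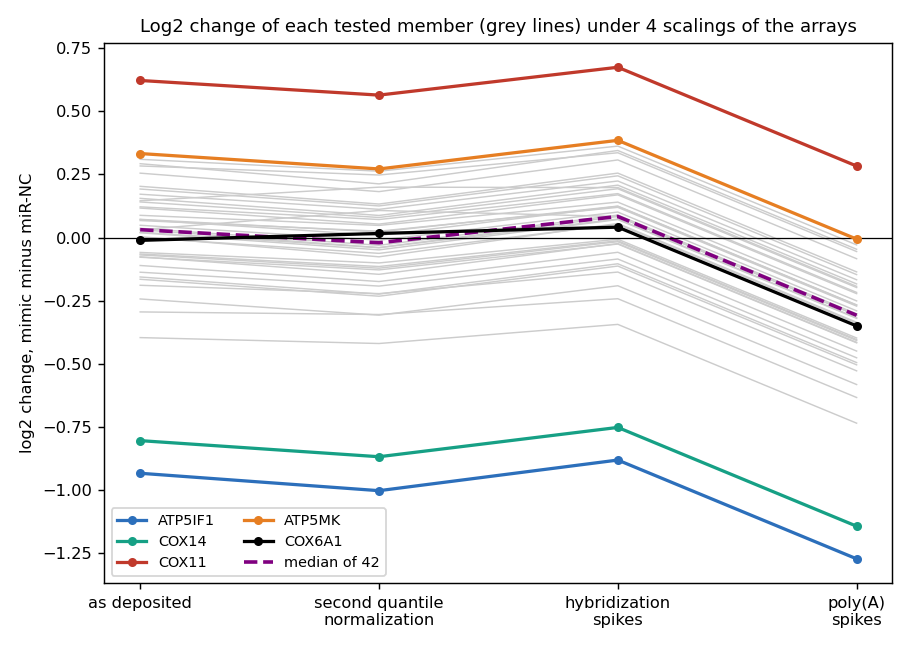
Log2 change (mimic minus miR-NC) of each of the 42 tested members as deposited, after a second quantile normalization, and scaled to the hybridization or the poly(A) spikes; grey lines are members and the dashed line is their median. The median is 0.031, -0.021, 0.083 and -0.31, and ATP5IF1, COX14 and COX11 keep their sign on all 4 scales.

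Other assembly factors of cytochrome oxidase, outside the symbol rule, changed in both directions. Of 28 listed genes 24 were matched and tested, 9 rose and 9 fell, with a median of 0.014 and a median size of 0.34. This is 75.0% called against 55.0% of all genes tested, whose median size was 0.29. PNKD, of which a short form associates with assembling complex IV, read 597 and 535 with the mimic and 1657 and 1753 with miR-NC, a change of -1.59 ± 0.064 (limma adjusted p = 1.77e-08). The hypoxia-responsive factor HIGD1A read 38.7 and 38.5 against 106 and 107, a change of -1.47 ± 0.10 (limma adjusted p = 6.59e-07). CMC1 and SMIM20, which bind new subunit I, rose by 1.07 ± 0.12 and 0.85 ± 0.057. COA3, the direct partner of COX14 and chosen after its values were seen, fell by 0.34 ± 0.052 on a probe set of the a type. The call was lost without probe sets of the a, s and x types (-0.21). Of the 5 tested assembly and accessory genes of ATP synthase 2 rose and 1 fell (60.0%, against 55.0% of all genes tested). ATPAF2, a chaperone of the alpha subunit, was at 0.66 ± 0.082 and TMEM242, which helps assemble the c ring, at 0.49 ± 0.081. DMAC2L was at -0.19 ± 0.064, a call lost on leaving out either mimic array or control replicate 1.

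Complex II and cytochrome c, the neighbours of these enzymes in the chain, were listed together with COXFA4 (formerly NDUFA4), a subunit of cytochrome oxidase outside the symbol rule. Of these 9 tested genes 2 rose and 3 fell (55.6%, against 55.0% of all genes tested). SDHAF2, which attaches the flavin of complex II, fell by 1.49 ± 0.062, SDHC fell by 0.14 ± 0.051, COXFA4, picked after its values were seen, fell by 0.12 ± 0.036, SDHAF4 rose by 0.23 ± 0.076, and cytochrome c (CYCS) rose by 0.14 ± 0.036, though CYCS was at -0.42 with the mean of its probe sets, and SDHAF4 at -0.13. The calls of SDHC, SDHAF4, COXFA4 and CYCS were each lost without mimic replicate 1 and without mimic replicate 2, and also without control replicate 2 for SDHC (-0.11) and without control replicate 1 for SDHAF4 (0.13). Of 15 tested regulators of mitochondrial biogenesis 3 rose and 3 fell (40.0%, against 55.0% of all genes tested). The mitochondrial transcription factor TFB2M rose by 0.73 ± 0.056, YY1 by 0.38 ± 0.052, with YY1 at -0.33 with the mean of its probe sets, while the nuclear receptor ESRRA fell by 0.57 ± 0.060 and the coactivator PPRC1 by 0.48 ± 0.072. NRF1 and GABPA, which bind the promoter motifs above and were picked after their values were seen, were at 0.22 ± 0.12 and 0.28 ± 0.12 and did not pass. Of 15 genes that shape the cristae 8 rose and 4 fell (80.0%, against 55.0% of all genes tested). APOO and APOOL, of the MICOS complex, rose by 0.85 ± 0.052 and 0.60 ± 0.067 and the protease OMA1 by 0.63 ± 0.078, and CHCHD10 fell by 0.68 ± 0.050. The mitochondrially encoded subunit III of cytochrome oxidase (COX3 in the annotation) read 3102 and 2610 with the mimic and 2064 and 1981 with miR-NC, a rise of 0.49 ± 0.070 (limma adjusted p = 1.35e-04) that was 0.15 and did not pass with the poly(A) spikes. With the poly(A) spikes the lists together had 9 genes higher and 37 lower, where 66.5% of all genes were called.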

How the data were processed

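Per the labels' protocols, biotin-labelled cRNA was prepared from total RNA, and per the submitters' processing notes the authors used RMA. The deposited intensity values run from 2.09 to 17329 and were taken as RMA values on a linear, not a log2, scale, then converted to log2. The build of the probe design and any filter before deposit are not given in the sources used here. Probe sets were named by the platform annotation. Each gene took its brightest probe set, and genes brighter on average than the 30th percentile of probe sets (12.0) entered the test with limma 3.58.1 in R 4.3.3 (lmFit, eBayes with trend, two-sided, 2 residual and 8.35 prior degrees of freedom, Benjamini-Hochberg over 14122 genes, threshold 0.05). Another fit covered 31752 probe sets. As background served 20 control probe sets without a human target, the highest at 16.8. Log2 changes carry SEs; the number of arrays limits the precision. The fit was tested on simulated data. The members, the lists, the tests and the rule for named genes (every called member, isoform partners, the brightest member, members changed by 0.5 or more, up to 4 changed genes per list) were chosen with earlier results of these data known. Alternatives varied scaling, filter, probe set, spread, threshold, offset, replicate block and arrays. RefSeq tables gave the sequences.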

Additional observations from a re-analysis of the deposited data

How the results depend on the processing

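ATP5IF1, COX14, COX11 and ATP5MC1 kept direction and call under each of 17 alternatives that gave a value, and ATP5ME, ATP5MK and COX16 under all of these except the poly(A) spikes. With the poly(A) spikes, 26 members were called lower and 1 higher (all genes 7818 and 1573, lists 37 and 9). The medians were -0.31 for members, -0.31 for cytochrome oxidase and -0.27 for ATP synthase. Of the 42 tested members, 26 had a positive log2 change as deposited and 1 with these spikes. Among the genes followed through the settings and called on at least 1 of both scales, signs turned for ATP5F1E -0.17, ATP5PF -0.14, ATP5ME -0.046, ATP5MF -0.20, ATP5MG -0.029, ATP5MJ -0.18, ATP5MK -0.0062, COX6C -0.15, COX7A2 -0.22, COX16 -0.084, COX20 -0.055, COX4I1 -0.30, COX7A2L -0.34, COX7B -0.29, COX8A -0.32, ATP5MC2 -0.34, SDHAF4 -0.11 and CYCS -0.20. The spikes' difference between the control arrays enters every gene alike, so p-values on that scale cannot be compared with the others. The same holds for the hybridization spikes, at a mean log2 of 10.91 and 11.02 on the control arrays. With the hybridization spikes the medians were 0.083, 0.077 and 0.12 in the same order, and after a second quantile normalization -0.021, -0.035 and 0.016, with 11 members lower. Another setting left out probe sets of the a, s and x types, with names ending in _a_at, _s_at or _x_at. Of these, the a type is made for transcripts of 1 gene and is not a cross-hybridizing type. In that setting 5039 genes and 16 members remain. There 5 members passed (4 higher, 1 lower) of 2303 genes (1133 and 1170), and the lists had 12 (4 and 8). The medians were 0.060 for members and 0.28 for ATP synthase. The latter is the value of ATP5F1C itself, as only ATP5MJ (0.0067) and ATP5MK (0.88) remain beside it, all on dimmer probe sets. Among the followed genes called with or without these probe sets, signs turned for ATP5F1C 0.28, COX6C -0.077, CYCS -1.39 and YY1 -0.65. With the mean of all probe sets ATP5F1C was at 0.085, SDHAF4 -0.13, CYCS -0.42, YY1 -0.33, and the ATP synthase median at 0.050; the cause was not tested. Without the mean-variance trend 11 members passed, 6 of them higher, and 13 list genes were lower. Leaving out each array gave 8 to 23 members called (5 to 15 higher, 3 to 8 lower), medians of 0.025 to 0.035 for members, 0.0033 to 0.030 for cytochrome oxidase and 0.040 to 0.089 for ATP synthase, and 5406 to 8128 genes in all, 2897 to 4087 higher and 2509 to 4041 lower, with 31 to 45 list genes called (19 to 27 higher, 12 to 19 lower). The replicate block gave 21 members called (13 higher, 8 lower) and 8253 genes; deviations of same-numbered arrays correlated at 0.084, and the labels do not say that the numbers pair the arrays.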
